A study of Mus musculus with 2 samples.

Results

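The genes described here are 48 genes of the lysosome: cathepsins and other acid hydrolases, proteins of the lysosomal membrane, subunits of the vacuolar proton pump (V-ATPase) and the transcription factors of the TFEB family. They were chosen by symbol from a list, and all 48 were found once each among the 55401 gene rows of the deposited table. RNA sequencing of poly(A) RNA gave their levels in myeloid-derived suppressor cells (MDSCs), immature neutrophil-like and monocyte-like cells that restrain T cells. MACS, a magnetic bead method, was used to take the cells from C57BL/6 mice with tumours of the mouse colon carcinoma line MC38, and they were then kept for 24 h with MC38 cells. The LysM-cre-labelled library (1 library) came from mice of genotype LysM-cre, Mettl3fl/fl, in which Cre is expressed from the lysozyme 2 locus of myeloid cells. The floxed control library (1 library) came from Mettl3fl/fl mice without Cre, so both libraries carry the floxed Mettl3 alleles. The mice were 8 weeks old, and the tumour line of the LysM-cre sample is written MC39 in 1 label field. How many animals gave each library is not stated in the labels.

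With 1 library per genotype no difference had a replicate check, and no p-value can be given. Each ratio of depth-scaled counts (CPM, counts relative to the library total) is the LysM-cre-labelled library over the floxed control. Its exact 95% interval (Clopper-Pearson) covers counting error only, so it compares the libraries and not the genotypes. Levels are in FPKM, fragments per kilobase scaled to depth, as the authors deposited them.

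Lysosomes are acidic organelles in which proteins, lipids, glycans and nucleic acids are broken down. Most of their enzymes work best at low pH, which the V-ATPase maintains by pumping protons into the organelle at the cost of ATP. Many lysosomal genes are controlled together by TFEB and its relatives, which bind a short palindromic element around the letters CACGTG in their promoters. In macrophages and monocytes, lysosomes also digest engulfed material and process antigens, and several lysosomal proteins serve as markers of these cells.

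The LysM-cre-labelled library held 59393864 counts and the floxed control library 59506878. The targeted gene Mettl3, the catalytic subunit of the m6A methyltransferase, stood at 3.92 FPKM in the LysM-cre-labelled library and at 4.16 FPKM in the floxed control (CPM ratio 0.945, 95% interval 0.876 to 1.02). The gene-level value therefore did not separate the libraries beyond counting error, and a gene-level value does not show the loss of single exons. The sample is therefore called by its label throughout. Markers of cell types differed between the libraries. Of 15 neutrophil markers 13 were lower in the LysM-cre-labelled library, with a summed level of 11473 FPKM against 13089 FPKM in the floxed control. Of 19 tested macrophage markers (of 21 listed, with Clec4f listed at 0 in both libraries) 15 were higher, with 3316 FPKM in the LysM-cre-labelled library against 2965 FPKM in the floxed control. Of 13 monocyte markers 8 were higher and 5 lower, with 2028 FPKM in the LysM-cre-labelled library against 1892 FPKM in the floxed control. Chil3, at 498 FPKM in the LysM-cre-labelled library against 367 FPKM in the floxed control, set most of the difference between these sums. The count interval lay wholly above 1 for 7 of the monocyte markers and wholly below 1 for 4. In bulk RNA, a change in the number of cells of a type and a change in RNA per cell cannot be told apart, and the part of cell composition in the differences below was not tested.

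Most lysosomal genes had similar levels in the LysM-cre-labelled library and the floxed control. All 48 passed the minimum mean of 1 FPKM, as did 12526 genes in all. On the log2(FPKM + 1) scale, which understates differences of low genes, 31 of the 48 were higher and 17 lower in the LysM-cre-labelled library, and their median log2 ratio was 0.04. Over all tested genes 50.3% were higher and 49.7% lower, and the median was 0.00. At least 2-fold higher was 1 gene of the 48, the sulfatase gene Sgsh, where 1.31% of all tested genes passed. At least 2-fold lower was also 1 gene, the proton pump subunit gene Atp6v0c, where 1.18% passed. No further gene of the 48 passed 1.5-fold, which 3.19% of all tested genes passed upwards and 3.28% downwards. Among the 7688 genes with 1000 or more counts in both libraries, 0.481% were 2-fold higher and 0.455% lower, 1.26% and 1.64% passed 1.5-fold, and 5.45% and 6.0% passed 1.2-fold. Counts of 1 gene are too few to be read against these shares. At 1.2-fold, a threshold set after the values were seen, 5 of the 48 were higher (Sgsh, Grn, Arsb, Lgmn and Ctsd) and 2 lower (Atp6v0c and Asah1), against 10.9% and 9.85% of all tested genes. By CPM ratio, which has no pseudocount, Smpd1 (1.22) also lay past 1.2-fold on the higher side.

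**Figure D1:**
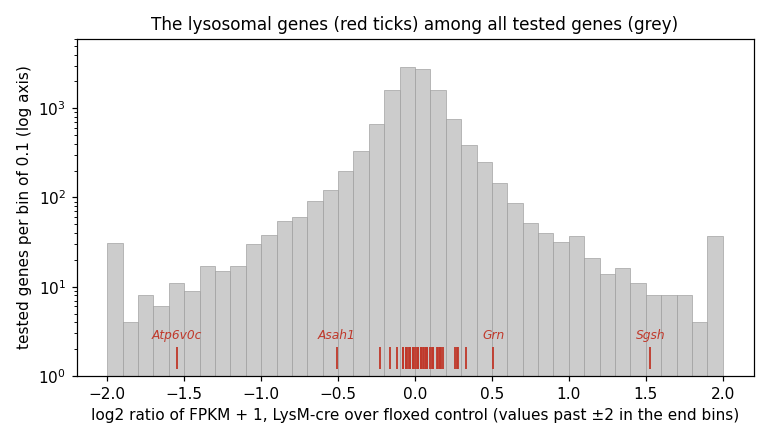
Number of tested genes (log axis) by log2 ratio of FPKM + 1 between the LysM-cre-labelled library and the floxed control, in bins of 0.1, with the 48 lysosomal genes as red ticks. Most ticks crowd around 0, while Sgsh lies at 1.53, Atp6v0c at −1.55, Grn at 0.51 and Asah1 at −0.51.

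Counting error was small for these genes, which held between 1027 and 410403 counts per library. The count interval lay wholly above 1 for 24 of the 48 genes, against 30.1% of all tested genes and 30.7% of the 7688 deeply counted genes. It lay wholly below 1 for 10 of the 48, against 29.7% and 33.6%, and it spanned 1 for 14. Together the 48 genes took 2.26% of all counts in the LysM-cre-labelled library and 2.16% in the floxed control. Their summed level was 6769 FPKM in the LysM-cre-labelled library against 6468 FPKM in the floxed control, a ratio of 1.05. Psap, Ctss, Ctsb and Ctsd alone carried 63.4% of this sum in each library.

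**Figure D2:**
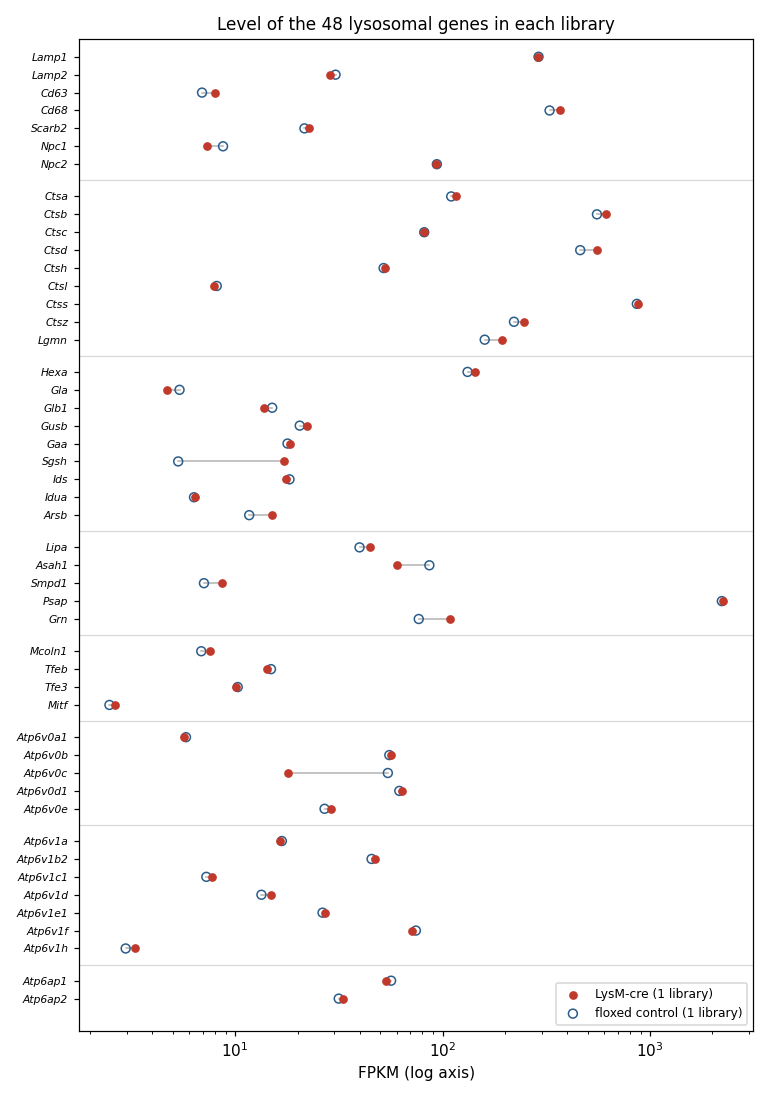
Level in FPKM (log axis) of each of the 48 genes in the LysM-cre-labelled library (filled red) and in the floxed control (open blue), 1 library each, arranged by role. The pairs of points nearly coincide for most genes and are far apart for Sgsh (17.2 against 5.32) and Atp6v0c (17.9 against 54.5).

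Proteins of the limiting membrane and the cholesterol carriers were close in level. Lamp1, the most abundant glycoprotein of the lysosomal membrane, stood at 288 FPKM in the LysM-cre-labelled library and 290.2 FPKM in the floxed control (CPM ratio 0.992). Lamp2, its relative that also takes part in chaperone-mediated autophagy, stood at 28.8 FPKM in the LysM-cre-labelled library and 30.5 FPKM in the floxed control, and Scarb2, the receptor that carries glucocerebrosidase to lysosomes, at 22.7 FPKM in the LysM-cre-labelled library and 21.6 FPKM in the floxed control. The receptor and the structural proteins of the membrane thus lay close together in both libraries, with CPM ratios from 0.944 for Lamp2 to 1.05 for Scarb2.

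Cd68, a membrane glycoprotein used as a marker of macrophages and monocytes, was higher in the LysM-cre-labelled library at 367 FPKM, against 328 FPKM in the floxed control (CPM ratio 1.12, 95% interval 1.10 to 1.14). Cd63, a tetraspanin of late endosomes and granules, was higher at 7.96 FPKM in the LysM-cre-labelled library, against 6.93 FPKM in the floxed control (CPM ratio 1.15, 95% interval 1.08 to 1.23). A pseudogene row, Cd63-ps, is 98.5% identical to Cd63 over 812 aligned bases and held 141 counts in the LysM-cre-labelled library and 52 in the floxed control, while Cd63 itself held 1956 in the LysM-cre-labelled library and 1707 in the floxed control, so reads cannot be assigned with certainty. Of the partners that move cholesterol out of lysosomes, only Npc1 differed between the libraries beyond counting error. Npc1, the membrane transporter, was lower in the LysM-cre-labelled library at 7.33 FPKM, against 8.75 FPKM in the floxed control (CPM ratio 0.837, 95% interval 0.808 to 0.868), whereas Npc2, the soluble carrier that hands cholesterol to it, stood at 93.2 FPKM in the LysM-cre-labelled library and 93.9 FPKM in the floxed control. Npc1 overlaps Rmc1 on the opposite strand, which held 3281 counts in the LysM-cre-labelled library and 3177 in the floxed control. The libraries were made with a strand-marking (dUTP) method, but no source used here says whether the counting used strand, so reads of overlapping genes may have been mixed. The same limit holds for Ctsa with Pltp (7855 counts in the LysM-cre-labelled library and 7644 in the floxed control) and for Idua with Dgkq (1083 in the LysM-cre-labelled library and 1690 in the floxed control). Glb1 shares its strand with Tmppe (636 counts in the LysM-cre-labelled library and 757 in the floxed control).

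The cathepsins, proteases named by letter, and legumain, an asparaginyl endopeptidase that processes them, had the highest summed level of the role groups. Of 9 genes 7 were higher in the LysM-cre-labelled library and 2 lower. Their median log2 ratio was 0.08, with a summed level of 2746 FPKM in the LysM-cre-labelled library against 2513 FPKM in the floxed control. Lgmn had the largest ratio at 194 FPKM in the LysM-cre-labelled library, against 159.7 FPKM in the floxed control (CPM ratio 1.21, 95% interval 1.19 to 1.23). Ctsd, the main aspartic protease of lysosomes, stood at 556 FPKM in the LysM-cre-labelled library and 461 FPKM in the floxed control (CPM ratio 1.2, 95% interval 1.19 to 1.22). Both lay past 1.2-fold in FPKM + 1. Of all tested genes 10.9% did so upwards, and of the 7688 genes with 1000 or more counts in both libraries 5.45% did.

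Ctsb, a cysteine protease that also trims peptides as a carboxydipeptidase, stood at 616 FPKM in the LysM-cre-labelled library and 555 FPKM in the floxed control (CPM ratio 1.11), and Ctsz, a carboxypeptidase, at 247 FPKM in the LysM-cre-labelled library and 221 FPKM in the floxed control (CPM ratio 1.12). Ctss, the most abundant cathepsin of both libraries, cleaves the invariant chain of class II molecules in antigen-presenting cells. It stood at 874 FPKM in the LysM-cre-labelled library and 864 FPKM in the floxed control (CPM ratio 1.01, 95% interval 1.00 to 1.02). Its share of the summed cathepsin and legumain level was 31.8% in the LysM-cre-labelled library and 34.4% in the floxed control, while that of Ctsd was 20.3% in the LysM-cre-labelled library and 18.4% in the floxed control.

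The remaining cathepsins were close in level. Ctsa, which also shields beta-galactosidase and neuraminidase from degradation, stood at 116 FPKM in the LysM-cre-labelled library and 110.1 FPKM in the floxed control. Ctsc, which activates the serine proteases of neutrophil granules, stood at 81.5 FPKM in the LysM-cre-labelled library and 81.6 FPKM in the floxed control, with an interval of its CPM ratio that spanned 1 (0.983 to 1.01). Ctsh, an aminopeptidase, stood at 52.6 FPKM in the LysM-cre-labelled library and 52.0 FPKM in the floxed control. Ctsl was the least abundant cathepsin of the list at 7.88 FPKM in the LysM-cre-labelled library and 8.16 FPKM in the floxed control (CPM ratio 0.967, 95% interval 0.922 to 1.01).

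Among the glycosidases and sulfatases, Sgsh stood apart from the rest. Sgsh encodes sulfamidase, which removes N-linked sulfate from heparan sulfate and is deficient in Sanfilippo syndrome type A. Its row (chromosome 11, 119343425 to 119355536, minus strand, mm10) held 5066 counts in the LysM-cre-labelled library and 1571 in the floxed control, or 17.2 FPKM in the LysM-cre-labelled library against 5.32 FPKM in the floxed control (CPM ratio 3.23, 95% interval 3.05 to 3.42). A log2 ratio as high as its 1.53 was reached by 0.503% of all tested genes. Genes near Sgsh showed no difference of this size. Slc26a11, an anion transporter gene that starts 20 bases away on the opposite strand, stood at 6.80 FPKM in the LysM-cre-labelled library and 6.24 FPKM in the floxed control (CPM ratio 1.09, 95% interval 1.02 to 1.17). Eif4a3, a core component of the exon junction complex, stood at 30.1 FPKM in both libraries. The acid glucosidase gene Gaa, itself among the 48, lies 57970 bases away and had a CPM ratio of 1.03 (95% interval 0.996 to 1.07). Card14, which overlaps Sgsh on the opposite strand, held 21 counts in the LysM-cre-labelled library and 39 in the floxed control. Copies of the longest protein-coding Sgsh transcript were sought in GENCODE M21 among gene rows that do not overlap Sgsh. None was at least 98% identical over 100 or more bases on the same strand.

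Of the other 8 glycosidases and sulfatases, 5 were higher and 3 lower in the LysM-cre-labelled library. Arsb, which removes sulfate from dermatan and chondroitin sulfate, stood at 15.0 FPKM in the LysM-cre-labelled library and 11.7 FPKM in the floxed control (CPM ratio 1.28, 95% interval 1.23 to 1.33). Hexa, the alpha chain of beta-hexosaminidase, was the most abundant of the group at 143 FPKM in the LysM-cre-labelled library, against 132 FPKM in the floxed control (CPM ratio 1.09, 95% interval 1.07 to 1.11). Gusb, beta-glucuronidase, stood at 22.2 FPKM in the LysM-cre-labelled library and 20.5 FPKM in the floxed control.

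The enzymes of heparan and dermatan sulfate breakdown other than Sgsh and Arsb differed little. Ids, the sulfatase that acts on iduronate, stood at 17.6 FPKM in the LysM-cre-labelled library and 18.3 FPKM in the floxed control, and Idua, the iduronidase that follows it, at 6.38 FPKM in the LysM-cre-labelled library and 6.34 FPKM in the floxed control. The galactosidases were lower in the LysM-cre-labelled library. Gla, alpha-galactosidase, stood at 4.71 FPKM in the LysM-cre-labelled library against 5.40 FPKM in the floxed control (CPM ratio 0.874, 95% interval 0.803 to 0.951), and Glb1, beta-galactosidase, at 13.8 FPKM in the LysM-cre-labelled library against 15.1 FPKM in the floxed control (CPM ratio 0.913, 95% interval 0.867 to 0.962). Gaa, which breaks down glycogen, stood at 18.5 FPKM in the LysM-cre-labelled library and 17.9 FPKM in the floxed control.

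**Figure D3:**
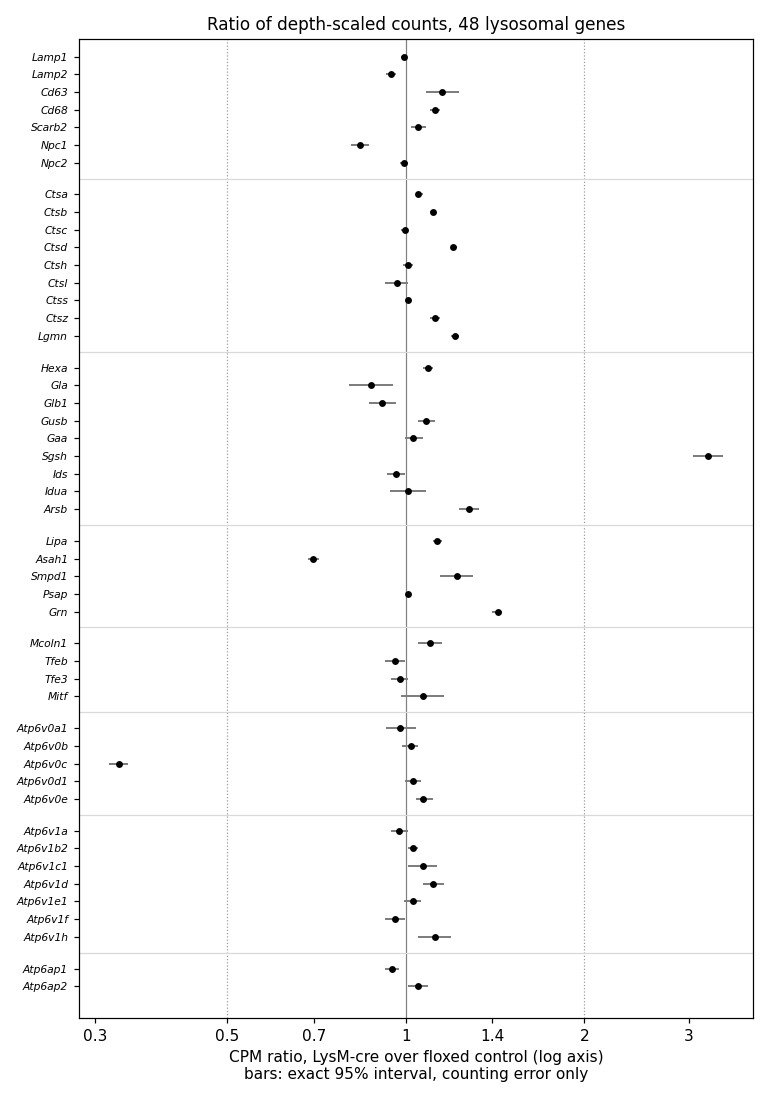
CPM ratio (log axis) of each of the 48 genes, LysM-cre-labelled library over floxed control, with exact 95% intervals for counting error only and dotted lines at 2-fold. Sgsh (3.23) and Atp6v0c (0.329) lie outside the dotted lines, Grn (1.43) and Asah1 (0.699) come next, and the other genes lie between 0.837 (Npc1) and 1.28 (Arsb).

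The lipid hydrolases and their cofactors held both the next highest and the next lowest ratios. Grn encodes progranulin, a secreted and lysosomal protein that is cut into granulins and is abundant in macrophages. It stood at 109 FPKM (25357 counts) in the LysM-cre-labelled library and 76.8 FPKM (17821 counts) in the floxed control (CPM ratio 1.43, 95% interval 1.4 to 1.45). Of all tested genes, 4.06% had a log2 ratio as high. Its nearest tested neighbours on chromosome 11 were close to level, with CPM ratios of 1.06 for Slc25a39 and 0.983 for Gpatch8.

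Asah1 encodes acid ceramidase, which splits ceramide into sphingosine and fatty acid. It was lower in the LysM-cre-labelled library at 60.4 FPKM (13650 counts), against 86.4 FPKM (19567 counts) in the floxed control (CPM ratio 0.699, 95% interval 0.684 to 0.714). Of all tested genes, 3.98% had a log2 ratio as low. Its neighbours Pcm1 (CPM ratio 1.01) and Frg1 (1.07) were not lower. Smpd1, acid sphingomyelinase, makes the ceramide that Asah1 splits, and it went the other way, at 8.64 FPKM in the LysM-cre-labelled library and 7.08 FPKM in the floxed control (CPM ratio 1.22, 95% interval 1.14 to 1.3).

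Lipa, the acid lipase that frees cholesterol and fatty acids from lipoprotein esters, stood at 44.9 FPKM in the LysM-cre-labelled library and 39.8 FPKM in the floxed control (CPM ratio 1.13, 95% interval 1.11 to 1.15). Psap, the precursor of the saposins that present sphingolipids to their hydrolases, was by far the most abundant of the 48 genes and ranked 12 among all tested genes by mean FPKM. It stood at 2244 FPKM in the LysM-cre-labelled library and 2219 FPKM in the floxed control (CPM ratio 1.01, 95% interval 1.01 to 1.02). Psap thus carried 33.1% of the summed level of the 48 genes in the LysM-cre-labelled library and 34.3% in the floxed control.

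The regulators of lysosomal genes were close in level. Tfeb stood at 14.3 FPKM in the LysM-cre-labelled library and 14.9 FPKM in the floxed control (CPM ratio 0.959, 95% interval 0.924 to 0.996). Its relatives Tfe3 (10.1 FPKM in the LysM-cre-labelled library, 10.3 FPKM in the floxed control) and Mitf (2.64 FPKM in the LysM-cre-labelled library, 2.48 FPKM in the floxed control) had intervals that spanned 1. Mcoln1, the lysosomal calcium channel TRPML1 whose calcium release activates TFEB through calcineurin, stood at 7.57 FPKM in the LysM-cre-labelled library and 6.87 FPKM in the floxed control (CPM ratio 1.10, 95% interval 1.05 to 1.15). TFEB and TFE3 are controlled mainly by phosphorylation and entry into the nucleus, which transcript levels do not measure.

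Promoters were compared for the letters of the TFEB element. RefSeq promoters of 300 bases (GRCm38.p6) were found for 41 of the 48 genes. CACGTG, which reads the same on both strands, stood in at least 1 promoter of 14 of the 41 genes (34.1%), against 8.09% of all 27025 genes with a promoter and 12.2% of the 8537 tested ones. The longer TCACGTGA, also a palindrome and itself counted within CACGTG, stood in 7 of the 41 (17.1%), against 1.12% and 2.40%. Examples are shown to set the element side by side in a protease gene, a channel gene, a glycosidase gene, a pump gene, a membrane protein gene and the gene with the highest ratio, each on its gene's strand with the motif in capitals.
Ctsd, chr7:142387907-142387938, minus strand: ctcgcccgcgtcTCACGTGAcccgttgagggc
Mcoln1, chr8:3500461-3500492, plus strand: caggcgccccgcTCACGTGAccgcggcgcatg
Gla, chrX:134601181-134601212, minus strand: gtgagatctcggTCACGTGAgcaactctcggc
Atp6v1a, chr16:44139372-44139403, minus strand: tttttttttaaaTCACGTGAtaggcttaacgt
Lamp1, chr8:13159088-13159117, plus strand: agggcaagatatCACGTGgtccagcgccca
Sgsh, chr11:119355522-119355551, minus strand: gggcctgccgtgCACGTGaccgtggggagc

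Presence of the motif did not go with a common direction. The 7 genes with TCACGTGA (Atp6v0d1, Atp6v0e, Atp6v1a, Ctsa, Ctsd, Gla and Mcoln1) had a median log2 ratio of 0.08, with 5 higher and 2 lower in the LysM-cre-labelled library and a range from −0.16 to 0.27. The 7 genes with CACGTG only had a median of 0.02 and included both Sgsh and Lamp1. The 27 genes without CACGTG in these windows had a median of 0.04. A match of letters is a description of the sequence and not evidence of binding.

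Among the membrane-embedded V0 subunits of the proton pump, Atp6v0c was lower by more than 2-fold and the other 4 had CPM ratios from 0.979 to 1.07. Atp6v0c encodes the proteolipid that forms the proton-carrying ring. Its row (chromosome 17, 24163866 to 24169702, minus strand, mm10) held 4043 counts in the LysM-cre-labelled library and 12325 in the floxed control, or 17.9 FPKM in the LysM-cre-labelled library against 54.5 FPKM in the floxed control (CPM ratio 0.329, 95% interval 0.317 to 0.341). A log2 ratio as low as its −1.55 was reached by 0.447% of all tested genes. Atp6v0b, the related proteolipid of the same ring, stood at 56.3 FPKM in the LysM-cre-labelled library and 55.4 FPKM in the floxed control (CPM ratio 1.02, 95% interval 0.984 to 1.05). Within the LysM-cre-labelled library the level of Atp6v0c was 0.318 times that of Atp6v0b, and within the floxed control it was 0.983 times. Atp6v0d1, the collar subunit between the ring and the V1 stalk, stood at 63.9 FPKM in the LysM-cre-labelled library and 61.9 FPKM in the floxed control (CPM ratio 1.03, 95% interval 0.999 to 1.06). Atp6v0e, a small membrane subunit, stood at 28.9 FPKM in the LysM-cre-labelled library and 27.0 FPKM in the floxed control. Atp6v0a1, an isoform of the subunit that forms the proton half-channels, stood at 5.69 FPKM in the LysM-cre-labelled library and 5.80 FPKM in the floxed control.

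The value of Atp6v0c is uncertain because of a near-identical copy. Atp6v0c-ps2, a processed pseudogene row on chromosome 6, held 2086 counts in the LysM-cre-labelled library and 1279 in the floxed control, so it went the other way (CPM ratio 1.63, 95% interval 1.52 to 1.75). Its 465 bases align to the coding sequence of Atp6v0c with 1 difference, T111C, counted from the first base of the start codon (99.8% identical). The longest identical run was 354 bases, more than the 150 bases of a read. The stretch around the difference is shown, from the GENCODE M21 transcripts, because it holds the only base that differs between the pair within those 465 bases, with the differing base in capitals.
Atp6v0c: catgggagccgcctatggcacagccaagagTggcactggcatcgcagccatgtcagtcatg
Atp6v0c-ps2: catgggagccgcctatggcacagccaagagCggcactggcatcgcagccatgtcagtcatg

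With the counts of the pair summed, 6129 in the LysM-cre-labelled library and 13604 in the floxed control, the CPM ratio was 0.451 (95% interval 0.438 to 0.465) in place of 0.329. The copy held 51.6% as many counts as Atp6v0c in the LysM-cre-labelled library and 10.4% as many in the floxed control. With counts summed, the direction was therefore the same with and without the copy, and the size of the difference depended on the copy. By level, the copy stood at 67.3 FPKM in the LysM-cre-labelled library and 41.2 FPKM in the floxed control. By summed level the pair would thus be lower in the LysM-cre-labelled library by less than 1.2-fold, whereas by summed counts it was lower by more than 2-fold. No source used here says how reads that match several places were counted. A second pseudogene row, Atp6v0c-ps1, held no counts in either library. The nearest tested neighbour of Atp6v0c, Amdhd2, lies 135 bases away on the same strand and stood at 5.89 FPKM in the LysM-cre-labelled library and 5.63 FPKM in the floxed control (CPM ratio 1.05, 95% interval 0.971 to 1.13). Other tested genes nearby on that strand went both ways, with CPM ratios of 0.709 (95% interval 0.638 to 0.786) for Tbc1d24, 5728 bases away, 0.896 for Pdpk1, 0.843 for Kctd5 and 1.5 for Tedc2.

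**Figure D4:**
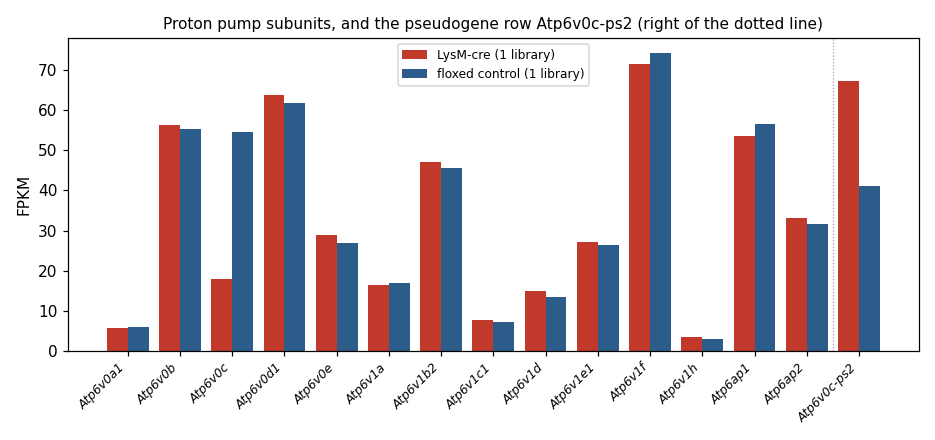
Level in FPKM of the 14 proton pump genes in the LysM-cre-labelled library (red, left bar) and the floxed control (blue, right bar), 1 library each, with the pseudogene row Atp6v0c-ps2 to the right of the dotted line. Atp6v0c is at 17.9 against 54.5 FPKM and Atp6v0c-ps2 at 67.3 against 41.2 FPKM, while the pairs of bars of the other 13 genes are of nearly equal height.

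The cytosolic V1 sector, which hydrolyses ATP, showed no such difference. Its 7 genes had CPM ratios from 0.960 (Atp6v1f) to 1.12 (Atp6v1h), and their summed level was 188 FPKM in the LysM-cre-labelled library and 187 FPKM in the floxed control. The catalytic subunit Atp6v1a stood at 16.4 FPKM in the LysM-cre-labelled library and 16.8 FPKM in the floxed control, and its non-catalytic partner Atp6v1b2 at 47.0 FPKM in the LysM-cre-labelled library and 45.5 FPKM in the floxed control. Atp6v1f, of the central rotor, was the most abundant at 71.5 FPKM in the LysM-cre-labelled library and 74.4 FPKM in the floxed control.

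The stalk and rotor subunits Atp6v1d (14.9 FPKM in the LysM-cre-labelled library and 13.4 FPKM in the floxed control), Atp6v1e1 (27.1 FPKM in the LysM-cre-labelled library, 26.4 FPKM in the floxed control) and Atp6v1c1 (7.77 FPKM in the LysM-cre-labelled library, 7.27 FPKM in the floxed control) and the regulatory subunit Atp6v1h (3.31 FPKM in the LysM-cre-labelled library, 2.97 FPKM in the floxed control) were slightly higher. The accessory subunits split, with Atp6ap1 at 53.6 FPKM in the LysM-cre-labelled library against 56.5 FPKM in the floxed control (CPM ratio 0.947, 95% interval 0.923 to 0.973) and Atp6ap2, also known as the prorenin receptor, at 33.1 FPKM in the LysM-cre-labelled library against 31.6 FPKM in the floxed control (CPM ratio 1.05, 95% interval 1.01 to 1.09). Without Atp6v0c, the 13 pump genes had a median log2 ratio of 0.04 and ranged from −0.08 to 0.14.

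Other genes of the pathway, taken from 5 lists of 129 symbols, were also close in level for the most part. Of 35 tested acid hydrolases and cofactors outside the 48 genes, 26 were higher and 9 lower in the LysM-cre-labelled library (median 0.08), and none passed 1.5-fold in FPKM + 1. The 2 with the largest absolute ratio were Ctse, an endosomal aspartic protease, at 65.0 FPKM in the LysM-cre-labelled library against 93.3 FPKM in the floxed control (CPM ratio 0.697, 95% interval 0.682 to 0.712), and Hyal2, a hyaluronidase, at 1.78 FPKM in the LysM-cre-labelled library against 1.11 FPKM in the floxed control (CPM ratio 1.6, 95% interval 1.36 to 1.89). Of 6 tested pump subunits outside the 48 genes, 3 were higher and 3 lower. Tcirg1, the pump subunit isoform known from osteoclasts and phagocytes, stood at 51.5 FPKM in the LysM-cre-labelled library and 51.7 FPKM in the floxed control. The low-level genes Atp6v0e2 (1.12 FPKM in the LysM-cre-labelled library, 2.13 FPKM in the floxed control) and Tmem9 (1.58 FPKM in the LysM-cre-labelled library, 0.941 FPKM in the floxed control) had the largest ratios of that list.

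Of 30 other lysosomal membrane proteins and transporters, 14 were higher and 16 lower (median −0.01). Past 1.5-fold was Pip4p1, a phosphoinositide phosphatase that moves lysosomes towards the cell centre, at 10.8 FPKM in the LysM-cre-labelled library against 18.9 FPKM in the floxed control (CPM ratio 0.570, 95% interval 0.546 to 0.595). Of 23 genes that sort proteins to the lysosome, 16 were higher and 7 lower (median 0.03). Past 1.5-fold was Gga3, a clathrin adaptor for mannose 6-phosphate receptors, at 7.55 FPKM in the LysM-cre-labelled library against 11.8 FPKM in the floxed control (CPM ratio 0.638, 95% interval 0.610 to 0.667). The small GTPase gene Rab7, which directs fusion with lysosomes, was just inside 1.5-fold at 80.2 FPKM in the LysM-cre-labelled library against 117 FPKM in the floxed control (CPM ratio 0.683, 95% interval 0.668 to 0.698).

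Of 24 tested genes of mTORC1, the Ragulator and TFEB control, 12 were higher and 12 lower (median −0.01). Gsk3b, a kinase that phosphorylates TFEB among many other proteins, passed 2-fold at 3.56 FPKM in the LysM-cre-labelled library against 8.72 FPKM in the floxed control (CPM ratio 0.408, 95% interval 0.389 to 0.429). The next largest ratios in the list were those of the calcineurin subunit Ppp3cb, at 6.91 FPKM in the LysM-cre-labelled library against 4.58 FPKM in the floxed control, and of Flcn, the folliculin gene, whose product acts on Rag GTPases, at 11.1 FPKM in the LysM-cre-labelled library against 16.1 FPKM in the floxed control. Over the 5 lists, 3 genes passed 1.5-fold in FPKM + 1, all of them lower in the LysM-cre-labelled library, where 3.19% of all tested genes passed upwards and 3.28% downwards. By CPM ratio, which has no pseudocount, Tmem9 (1.68), Hyal2 (1.6) and Ppp3cb (1.51) also lay past 1.5-fold on the higher side and Atp6v0e2 (0.526) on the lower side.

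**Figure D5:**
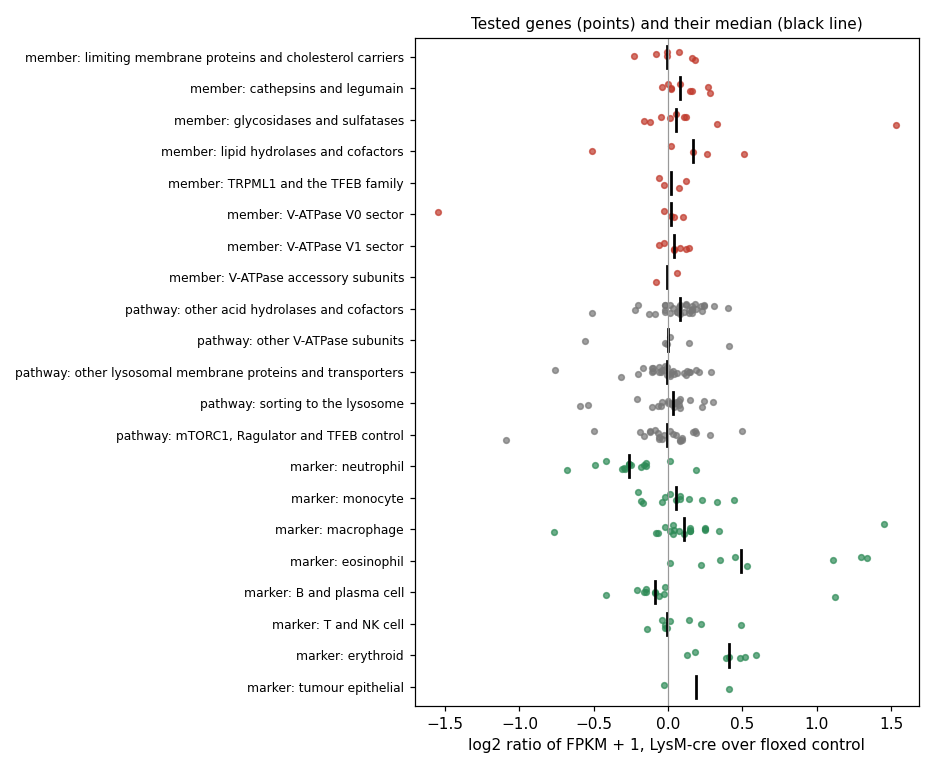
Log2 ratio of FPKM + 1, LysM-cre-labelled library over floxed control, for the tested genes of each role group (red), of 5 other pathway lists (grey) and of 8 cell type marker lists (green), with medians as black lines. The medians of the role groups lie between −0.01 and 0.17, and those of the marker lists between −0.26 (neutrophil) and 0.49 (eosinophil).

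Among the marker lists of cell types that the bead-isolated cells could hold, several were not level. The T and NK cell markers were close to level (median log2 ratio −0.01). The median log2 ratio was −0.26 for the neutrophil markers, 0.11 for the macrophage markers and 0.05 for the monocyte markers, against 0.04 for the 48 genes. It was furthest from 0 for the eosinophil markers (0.49) and the erythroid markers (0.41). The tested macrophage markers did not go 1 way, with log2 ratios from −0.77 (Vsig4) to 1.45 (Marco). The 8 eosinophil markers were all higher (summed level 895 FPKM in the LysM-cre-labelled library and 672 FPKM in the floxed control), as were the 7 tested erythroid markers (1384 FPKM in the LysM-cre-labelled library, 988 FPKM in the floxed control). Of 11 B and plasma cell markers 10 were lower and 1 higher. The higher one, Jchain, stood at 555 FPKM in the LysM-cre-labelled library and 255 FPKM in the floxed control and set the direction of the summed level (789.7 FPKM in the LysM-cre-labelled library, 508 FPKM in the floxed control). Of 9 tested T and NK cell markers 4 were higher and 5 lower (288 FPKM in the LysM-cre-labelled library, 279 FPKM in the floxed control). Of 7 markers of tumour epithelium 2 were tested, with 4.19 FPKM in the LysM-cre-labelled library and 3.98 FPKM in the floxed control in all, and Krt19 and Krt20 were listed at 0 in both. Mixed cell composition was not separated from levels within MDSCs, and its part in these ratios was not tested.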

How the data were processed

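RNA-seq of 2 mouse MDSC libraries was compared, and the labelled genotype set the group. The submitters' processing notes name HISAT2 2.0.4, cutadapt 1.9, StringTie 1.3.4d, DESeq2, edgeR and the build mm10, with neither role nor setting for any of them. The authors deposited 1 table that gives each gene an unnormalized whole-number count and an FPKM in each library. An FPKM of 0.0001 marked a count of 0 in the deposited table and was read as 0. A further 8 columns, from 4 libraries without a sample label, stayed out.

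The tested genes were the 12526 whose FPKM averaged at least 1, and log2 ratios used FPKM + 1. CPM ratios used library totals, with exact intervals. Since 1 library per genotype allows no test, genes were counted past fixed folds. The 48 genes and all lists were chosen with earlier results of these data known. The 1.2-fold threshold, the minimum of 1000 counts and the grouping of genes by motif were set after values were seen. The rule for named genes accounted for all 48, in full for the 12 with the largest absolute log2 ratio and the most abundant gene of each role group and by level for the others, and took Mettl3 and, from each other pathway list, the genes past 1.5-fold or else the 2 with the largest absolute log2 ratio. Galc, Rab7, Ppp3cb, Flcn, Tcirg1, Chil3, Vsig4, Marco, Jchain, the neighbouring genes and the copies were named after their values were seen. Gene coordinates are those of the deposited table and were the same in GENCODE M21 for 44 of the 48. Near-identical copies of the longest protein-coding transcript of each gene were sought with BLAST 2.17.0 (at least 98% identity over 100 bases, same strand). They were found for 4 of the 48 (Atp6v0c, Cd63, Atp6v1f and Atp6ap2). The scripts were tested on simulated data. Alternatives were other pseudocounts, minimums, scalings and summed rows. Tools were R 4.3.3 with edgeR 4.0.16 (TMM factors) and DESeq2 1.42.0 (size factors), and Python 3.11.15 with scipy 1.17.1, pandas 2.3.3 and biopython 1.88.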

Additional observations from a re-analysis of the deposited data

How the results depend on the processing

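Across 9 alternatives (pseudocounts of 0.1 and 5 FPKM, no minimum, a minimum of 10 FPKM, TPM, TMM factors, median-ratio size factors, and overlapping or pseudogene rows summed by count) the numbers of genes past 2-fold and 1.5-fold stayed at 1 higher and 1 lower. The median log2 ratio of the 48 genes lay between 0.027 (TPM) and 0.046 (TMM factors), against 0.044 as reported. Past 1.2-fold upwards were 6 genes with the pseudocount of 0.1 FPKM and 4 with that of 5 FPKM, in place of 5. With TPM, 27 genes were higher and 21 lower in place of 31 and 17, and 3 in place of 5 passed 1.2-fold upwards. TPM moved all genes of a library alike, so the 48 genes moved with the rest. The median of all tested genes was −0.015 with TPM, over the 15502 genes that passed the minimum on that scale. As reported it was 0.001, over 12526 genes. With the pseudogene rows summed by count, the CPM ratio of Atp6v0c was 0.451 in place of 0.329. A sum by level was not among the alternatives, and by level the pair differed by less than 1.2-fold. No paired analysis was possible because each genotype had 1 library, and no library could be left out for the same reason. Counting error was small, and the spread between animals is not measured by these data.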
